A study of Rattus norvegicus with 8 samples.

Results

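Genes that mark tubular injury were examined in the kidney cortex of male and female rats. The 10 genes were chosen by name, with earlier results of these data known: Havcr1, Lcn2, Spp1, Clu, Timp1, Gdf15, Cd44, Sox9, Cst3 and Tff3. A probe belonged to a gene when its RefSeq accession was assigned to that gene, and this gave 12 of the 30367 probes of the array. These 12 probes covered 9 of the 10 genes, among 14737 genes with a named probe. No probe carried the name of Sox9, a transcription factor that is switched on in tubular cells after injury, and its expression was not analysed here.

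The mRNA came from slices of the kidney cortex of adult RCCHanTMWIST rats, 4 females and 4 males, and each rat was read on its own one-colour Agilent array. No rat of either sex was treated, and the labels give no mutation or transgene. The slices contain all cell types of the cortex, so that in these bulk samples fewer cells of a type and less RNA per cell cannot be told apart. All arrays shared 1 slide, each of whose 2 rows held 2 females and 2 males, and between 73.8% and 79.1% of the probes exceeded the background clearly on an array, with no saturated spot. Summed signals of 8 proximal tubule genes ran from 300 to 326 in females and from 298 to 328 in males (in units of the 75th percentile of the array), and Slc14a2, a urea transporter of the inner medulla, did not clearly exceed the background on any array.

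The proximal tubule does most of the reabsorption in the kidney and is the segment most easily hurt by lack of oxygen and by toxins. Injured tubular cells lose transporters, flatten, and switch on genes for adhesion proteins, secreted binding proteins, protease inhibitors and stress cytokines. Several of these proteins reach the urine and are read there as signs of damage, whereas cystatin C and trefoil factor 3 are made by healthy tissue as well. The rats studied here had no induced injury, so that the values below are those of untreated cortex. Whether a higher level of any of these genes goes with more or with less injury was not tested.

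All 9 genes with a probe were measurable. Their brightest probes were well above background on 8 of 8 arrays. Levels are log2 signals from which the log2 of that array's 75th percentile was subtracted, so that 0 is the level of that percentile and a difference of 1 is a 2-fold difference. Levels of different genes were not ranked, because probes differ in how they hybridize. Differences are given as male minus female, with p-values from limma after Benjamini-Hochberg adjustment over 23425 probes.

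Of the 9 genes, 2 passed both the adjusted p of 0.05 and the 2-fold limit used to call sex-dependent expression, while 1.89% of all probes tested did so. Both were higher in males, which held for 0.798% of all probes. Tff3 was 2.56-fold and Gdf15 2.15-fold higher in males. The count of 2 fell to 1 when female 1, female 2 or any 1 of the males was left out. Timp1 was 1.7-fold higher in females and passed the adjusted p but not the 2-fold limit. Hence 3 of 9 genes passed the adjusted p alone, against 8.06% of all probes (3.39% higher in males, 4.67% higher in females). The split by direction moved with the scaling, since of the probes called with both limits 187 were higher in males and 256 in females, against 223 and 221 with quantile normalization. At an unadjusted p, 4 of 9 genes passed, against 25.6% of all probes. The values of the sexes did not overlap in 4 of 9 genes, these 3 and Spp1, against 18.5% of all probes. With only 9 genes, chosen with earlier results of these data known, these counts are given as a description. The median difference over the 9 genes was 0.01, and over all probes tested it was -0.04.

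**Figure D1:**
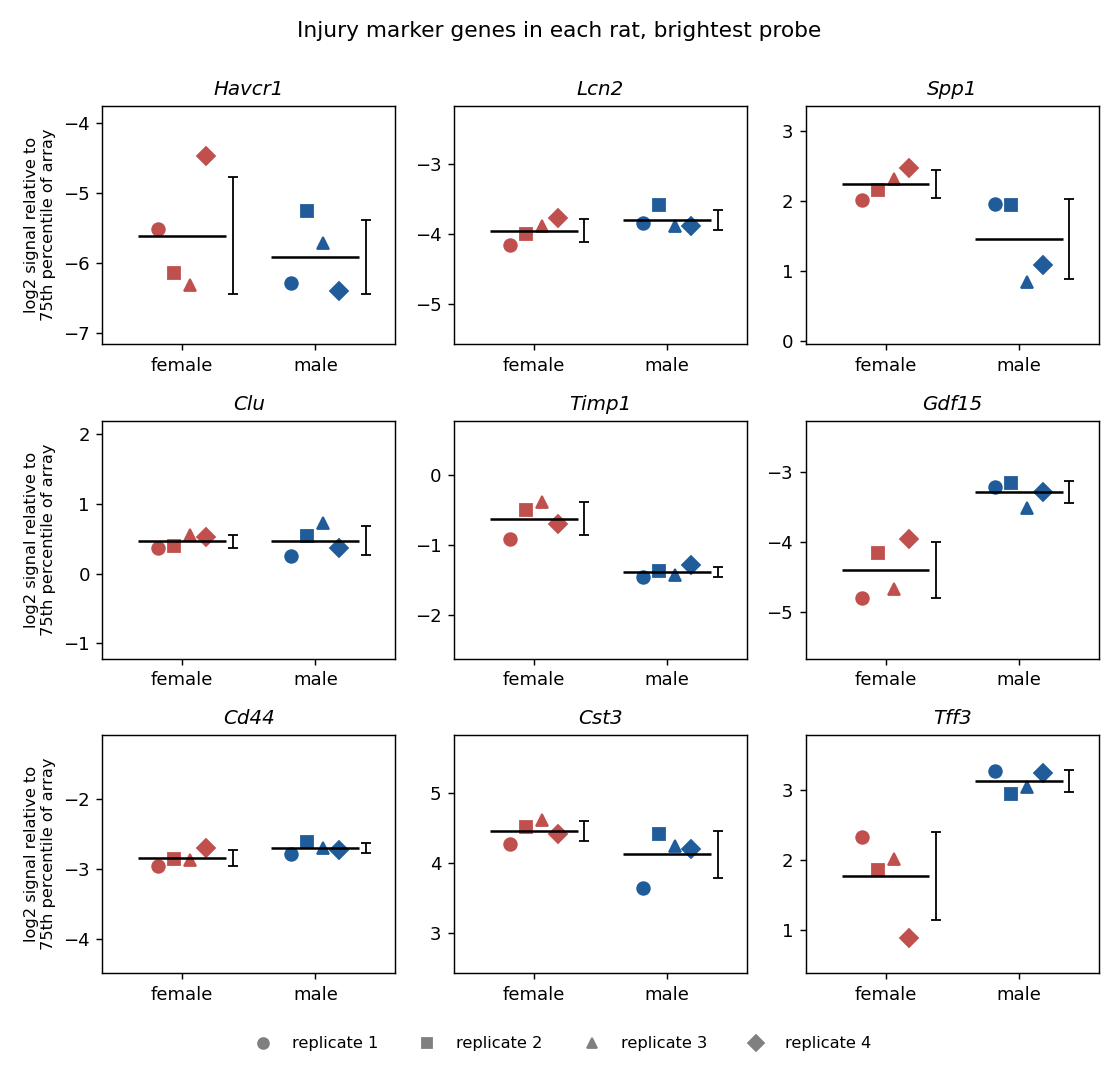
Log2 signal of 9 injury marker genes relative to the 75th percentile of the array (vertical axes, each spanning 3.4 log2 units) in 4 female and 4 male rats. Each symbol is 1 rat, horizontal lines are means and bars beside them SD. Males lie above females without overlap for Tff3 and Gdf15, and below them without overlap for Timp1 and Spp1.

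The promoters of the 3 genes that passed the adjusted p are shown first, because Tff3 and Gdf15 lay on the same side of the comparison and Timp1 on the other. RefSeq starts were found for 8 of the 10 genes (build GRCr8; Clu and Sox9 are not in the table), and the 250 bases before each start are considered. Gdf15 has 2 starts, of which the downstream one is printed. Sequences run 5′ to 3′ in the direction of the gene and end at the base before the start. Capitals mark TATAAA, which is the core of a TATA box, TGANTCA, which is an AP-1 site, TTCNNNGAA, which is the core of STAT and BCL6 sites, TGTTCT, which is the half-site of the androgen receptor, and GGGCGG, which is an Sp1 site, each searched on both strands.
Tff3, chr20:9199334-9199583, minus strand: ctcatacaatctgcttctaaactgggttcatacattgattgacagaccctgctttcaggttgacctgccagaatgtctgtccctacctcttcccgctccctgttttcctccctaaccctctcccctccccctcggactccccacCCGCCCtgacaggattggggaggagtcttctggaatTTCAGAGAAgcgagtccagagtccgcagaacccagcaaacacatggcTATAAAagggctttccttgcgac
Gdf15, chr16:18839015-18839264, plus strand: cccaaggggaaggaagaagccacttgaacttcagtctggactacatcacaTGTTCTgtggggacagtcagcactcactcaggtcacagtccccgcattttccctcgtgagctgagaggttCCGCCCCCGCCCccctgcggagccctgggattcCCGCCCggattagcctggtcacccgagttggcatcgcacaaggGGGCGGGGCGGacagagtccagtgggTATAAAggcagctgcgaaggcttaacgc
Timp1, chrX:3771123-3771372, minus strand: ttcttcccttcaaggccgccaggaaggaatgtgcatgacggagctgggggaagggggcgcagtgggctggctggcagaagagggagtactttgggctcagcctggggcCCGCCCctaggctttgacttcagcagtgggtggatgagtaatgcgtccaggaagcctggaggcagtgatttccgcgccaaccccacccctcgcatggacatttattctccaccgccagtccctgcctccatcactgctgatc

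The Tff3 window held TATAAA at -23 to -18, counted from the start, which occurs in 12.9% of the 33469 promoters of the table. It also held TTCAGAGAA, a match to the STAT and BCL6 core, at -70 to -62, and 7.67% of all promoters hold such a match, as well as 1 GGGCGG on the opposite strand. The Gdf15 window held TATAAA at -28 to -23, 1 copy of TGTTCT, a motif found in 17.5% of promoters, and 5 copies of GGGCGG or its complement, found in 30.5% of promoters. Of these copies, the pair nearest to the start shares a base. The Timp1 window held 1 GGGCGG on the opposite strand. None of the 9 windows of the 8 genes held TGANTCA, which 6.34% of promoters hold. Among the genes not printed, Spp1 held TATAAA at -204 to -199, Cst3 held 1 half-site of the androgen receptor and 1 GGGCGG, and the other starts of these genes held none of the 5 motifs. These are matches of letters and not measured binding sites.

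Tff3 encodes trefoil factor 3, a small secreted peptide that protects and repairs epithelia and is excreted in urine. Its probe A_44_P335079 gave 2.33, 1.86, 2.01 and 0.88 in females 1 to 4. In males 1 to 4 it gave 3.28, 2.94, 3.05 and 3.24. All males lay above all females, the males lay close together, and female 4 lay well below the other females. The difference was 1.36 ± 0.279 (SE, n = 4 per sex; 95% interval 0.72 to 1.99; adjusted p = 0.0247 in limma; two-sided exact permutation p = 0.0286, the smallest p that 4 against 4 values allow). The SD was 0.62 in females and 0.16 in males. The 2 spots of the probe on an array differed little, with an SD of 0.0436 that is 10.4 times smaller than the SD between rats of 1 sex. Within the rows of the slide the difference was 1.81 in row 1, which holds female 4, and 0.90 in row 2. The adjusted p in limma rose above 0.05 when female 2, male 1, male 2, male 3 or male 4 was left out (0.0537 to 0.0617, difference 1.31 to 1.42).

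The other trefoil factors were below the limit of measurement, as neither Tff1 nor Tff2 exceeded the background clearly on any array. Of the short list of trefoil and mucin genes, 1 could be tested. This was Muc20, a membrane mucin of the kidney tubule, which was higher in females by 0.49 on the log2 scale (difference -0.49 ± 0.0748 (SE), adjusted p = 0.0075 in limma). Its values ran from -1.45 to -1.22 in females and from -1.88 to -1.78 in males, without overlap.

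Gdf15 encodes growth differentiation factor 15, a cytokine of the TGF-β family that cells release under stress. Its probe A_64_P011489 gave -4.80, -4.17, -4.68 and -3.96 in females 1 to 4. The corresponding values in males were -3.22, -3.16, -3.52 and -3.29. Every male exceeded every female, and the spread was wider in females (SD 0.40) than in males (SD 0.16), a difference in spread that was not tested. The difference in level was 1.11 ± 0.191 (SE; 95% interval 0.67 to 1.54; adjusted p = 0.0122 in limma; exact permutation p = 0.0286). It amounted to 1.07 in row 1 and 1.15 in row 2 of the slide. Without female 1 it was 0.98, just under the 2-fold limit, at an adjusted p of 0.0268 in limma. Gfral, the receptor subunit that binds it, had no named probe.

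Timp1 encodes tissue inhibitor of metalloproteinases 1, which blocks matrix-degrading enzymes and rises in injured and scarring kidneys. Its probe A_44_P461154 lay on 10 spots per array. Females 1 to 4 gave -0.92, -0.50, -0.39 and -0.71, and males 1 to 4 gave -1.46, -1.37, -1.44 and -1.29. Thus all males lay below all females and within a narrow band (SD 0.075), and the females were more scattered (SD 0.23). The difference was -0.76 ± 0.117 (SE; 95% interval -1.03 to -0.49; adjusted p = 0.00789 in limma; exact permutation p = 0.0286). It was -0.83 in row 1 and -0.70 in row 2. In all 19 alternatives run, Timp1 passed the adjusted p, with differences from -0.86 to -0.68. Timp1 lies on the X chromosome in the promoter table.

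The enzymes around Timp1 and the other inhibitors gave no call. Of 18 metalloproteinase genes and inhibitors listed, 12 could be tested and none passed the adjusted p in limma (2 at an unadjusted p; median difference 0.04), against 9.2% of all named genes at the adjusted p. Timp2, an inhibitor whose protein is read in urine as a sign of tubular stress, gave -0.21 ± 0.0832 (SE; adjusted p = 0.161 in limma). Timp3, which is bound to the matrix, gave 0.15 ± 0.123 (adjusted p = 0.507 in limma). The gelatinases Mmp2 (-0.01, adjusted p = 0.962) and Mmp9 (0.52, adjusted p = 0.535) and the membrane-bound Mmp14 (-0.19, adjusted p = 0.205) likewise stayed above the threshold in limma. Mmp9 varied most of these, from -6.99 in male 1 to -4.83 in male 2. Mmp3, Mmp7, Mmp8, Mmp10 and Mmp13 were not clearly above background on any array.

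Spp1 encodes osteopontin, a secreted adhesion protein that tubular cells make in the healthy kidney and more strongly after injury. On 10 spots per array its probe A_44_P491796 gave 2.01, 2.16, 2.32 and 2.47 in females 1 to 4. Males 1 to 4 gave 1.96, 1.94, 0.84 and 1.09. Males 1 and 2 lay just under the lowest female, and males 3 and 4 about 1 unit lower. The difference of -0.78 ± 0.266 (SE; 95% interval -1.39 to -0.18) had an exact permutation p of 0.0286 but an adjusted p of 0.111 in limma. It was -0.87 in row 1 and -0.70 in row 2. Its adjusted p ran from 0.0775 to 0.215 over the alternatives, so that the gene passed in none of them. The spread among rats of 1 sex (SD 0.43) was larger than that of 91.3% of all probes tested.

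Marker genes of other segments moved in the same direction as Timp1 and Spp1. The summed signals of 3 thick ascending limb genes were 57.7 to 65.3 times the 75th percentile in females and 47.5 to 55.3 times in males, without overlap, and 1 of the 3 genes passed the adjusted p. Those of 4 podocyte genes were 12.2 to 13 in females and 10.5 to 11 in males, and 1 of the 4 passed. Umod, a defining gene of the thick ascending limb, gave -0.26 ± 0.0813 (SE; adjusted p = 0.088 in limma). For the macrophage genes, of which Cd163 stayed at background on every array and 5 could be tested, sums of 23.1 to 29.5 in females and 19.4 to 30.5 in males overlapped, and none passed the adjusted p in limma (0 at an unadjusted p). The part of these cell types in the values of Timp1 and Spp1 was not tested.

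Havcr1 encodes kidney injury molecule 1, a receptor of proximal tubular cells that binds dying cells and is close to absent before injury. Probe A_44_P252517 gave -5.51, -6.15, -6.32 and -4.47 in females 1 to 4. In males it gave -6.29, -5.26, -5.72 and -6.41. The ranges of the sexes overlapped widely, and female 4 had the highest value of the 8 rats. Signals before scaling ran from 69.9 in female 3 to 269 in female 4. The difference was -0.31 ± 0.426 (SE; 95% interval -1.28 to 0.67; adjusted p = 0.699 in limma; exact permutation p = 0.571). This interval includes a 2-fold higher level in females but not in males. Without female 4 the difference was 0.07. The SD between rats of 1 sex, 0.70, exceeded that of 97.5% of all probes tested and was 5.5 times the SD between the 2 spots of an array. In the rows of the slide the difference was -0.96 and 0.34.

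Of the same receptor family, Timd2 and Havcr2 were also tested. Timd2, a ferritin receptor of the TIM family, was higher in males (0.76 ± 0.158 (SE), 1.7-fold, adjusted p = 0.0253 in limma), with females from -0.33 to 0.17 and males from 0.34 to 0.91. Its adjusted p in limma rose to 0.0583 to 0.0695 without female 1, female 2, female 3, male 1 or male 2. Havcr2, a member found on immune cells, gave -0.36 ± 0.316 (SE; adjusted p = 0.52 in limma).

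Lcn2 encodes lipocalin 2, a siderophore-binding protein of injured distal tubules and of neutrophils. Its values were -4.16, -3.99, -3.88 and -3.77 in females 1 to 4 and -3.84, -3.58, -3.88 and -3.88 in males 1 to 4 (probe A_42_P638620). Female and male ranges overlapped, with male 2 highest and female 1 lowest. The difference was 0.16 ± 0.108 (SE; 95% interval -0.09 to 0.40; adjusted p = 0.415 in limma), an interval that lies within a 2-fold difference. Of the 5 neutrophil genes listed, Ngp and Cxcr2 stayed at background on every array, and the summed signals of the 2 tested genes reached at most 0.0876 times the 75th percentile. The receptors of filtered lipocalin 2 gave differing values. Cubn, which encodes cubilin of the proximal tubular brush border, was higher in females (-0.59 ± 0.0785 (SE), adjusted p = 0.00452 in limma), with females from 3.46 to 3.72 and males from 2.92 to 3.09. Its partner Lrp2, which encodes megalin, gave -0.01 ± 0.111 (SE; adjusted p = 0.974), and Slc22a17, the distal lipocalin receptor, gave 0.30 ± 0.0829 (SE; adjusted p = 0.0641 in limma).

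Clu encodes clusterin, a secreted chaperone that binds damaged proteins. Probe A_42_P538928, on 10 spots per array, gave 0.37, 0.40, 0.55 and 0.52 in females 1 to 4. The male values were 0.25, 0.54, 0.72 and 0.37, and the lowest and the highest of the 8 values were both those of males. The difference was 0.01 ± 0.109 (SE; 95% interval -0.24 to 0.26; adjusted p = 0.967 in limma). Its sign changed with several alternatives, and no direction can be given.

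Cst3 encodes cystatin C, an inhibitor of cathepsins made by nearly all cells and used in blood as a measure of filtration. Females 1 to 4 gave 4.28, 4.52, 4.62 and 4.42, and males 1 to 4 gave 3.64, 4.42, 4.25 and 4.20 (probe A_44_P110109). Male 1 was the lowest of all rats, males 3 and 4 lay just below the lowest female, and male 2 lay within the range of the females. The difference was -0.34 ± 0.165 (SE; 95% interval -0.71 to 0.04; adjusted p = 0.247 in limma; exact permutation p = 0.0571), and without male 1 it was -0.17. Here the SD between the 2 spots of an array (0.239) was nearly that between rats of 1 sex (0.26). How much of the spread between rats is reading error was not tested.

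Of the cathepsins and cystatins, 2 of 13 genes tested passed the adjusted p in limma, in opposite directions, which is 15.4% against 9.2% of all named genes. Cstb, which encodes the cytosolic cystatin B, was higher in males (0.42 ± 0.071 (SE), adjusted p = 0.0109), with females from 3.22 to 3.39 and males from 3.65 to 3.82. Ctsl, which encodes the lysosomal protease cathepsin L, was higher in females (-0.48 ± 0.109 (SE), adjusted p = 0.0344), and without female 1, female 2, female 3, male 2, male 3 or male 4 its adjusted p in limma was 0.0532 to 0.0888. Ctsb (-0.08, adjusted p = 0.536) and Cst6 (-0.14, adjusted p = 0.465) did not pass in limma.

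Cd44 encodes a membrane receptor for hyaluronan and osteopontin. It was the only one of the 9 genes with several probes, 4 in number. The brightest, A_64_P080817, gave -2.96, -2.85, -2.87 and -2.69 in females 1 to 4 and -2.78, -2.61, -2.69 and -2.73 in males 1 to 4. These ranges overlapped (0.14 ± 0.078 (SE); 95% interval -0.04 to 0.32; adjusted p = 0.299 in limma). Probe A_64_P130995, also well above background on 8 arrays, pointed the other way (-0.12 ± 0.134 (SE); 95% interval -0.43 to 0.18; adjusted p = 0.615 in limma), with females from -6.16 to -5.55 and males from -6.14 to -5.88. The other probes, A_64_P280765 and A_64_P130999, were well above background on 2 and 0 arrays and were not tested. Where in the transcript each probe lies is not given in the sources used here.

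Among the genes of hyaluronan turnover and CD44 binding, none of 8 tested genes passed the adjusted p in limma (3 at an unadjusted p; median difference -0.20), against 9.2% of all named genes at the adjusted and 26% at the unadjusted p. Hyal1, which encodes a lysosomal hyaluronidase, gave -0.76 ± 0.322 (SE; adjusted p = 0.183 in limma). The hyaluronan synthase gene Has2 stayed at background on all arrays. A further list held receptors and binding partners of the 9 genes, including the integrin subunits that bind osteopontin, and relatives of Havcr1. Of these, 16 were tested, and 2 passed the adjusted p in limma, Timd2 and Cubn, which is 12.5% against 9.2% of all named genes. Itgb1 gave -0.06 (adjusted p = 0.625), Itgb3 gave -0.34 (adjusted p = 0.347 in limma, with a probe well above background on 4 of 8 arrays), and Itgav had no named probe.

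**Figure D2:**
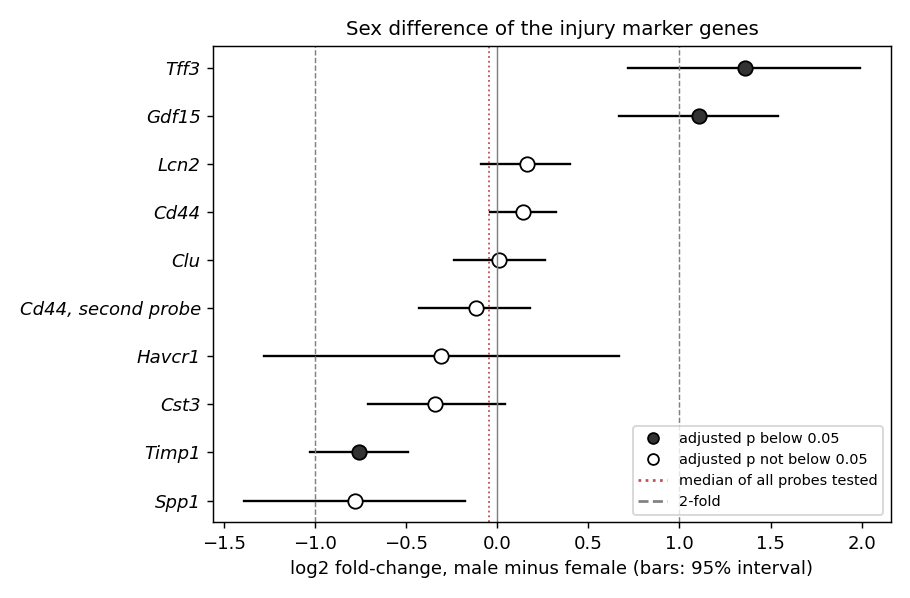
Difference between males and females (horizontal axis, log2 fold-change, male minus female) for the 10 tested probes of the 9 genes, with 95% intervals from limma. Filled points passed the adjusted p of 0.05, dashed lines mark a 2-fold difference, and the dotted line marks the median of all probes. Tff3 and Gdf15 lie beyond 1, Timp1 at -0.76, and the interval of Havcr1 crosses -1.

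The order of the rats differed between the 9 genes. Within the females, female 4 had the highest level of 5 genes, among them Havcr1, Spp1 and Gdf15, but the lowest of Tff3. Female 1 had the lowest level of 7 genes but the highest of Tff3. Within the males, male 2 had the highest level of 5 genes, and male 1 had the lowest of 4. The largest deviations from the mean of a sex were those of female 4, with 1.15 for Havcr1 and -0.89 for Tff3, and the largest among males was 0.66 for Havcr1 in male 2. For Lcn2, Clu and Cd44 no rat deviated by more than 0.25.

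**Figure D3:**
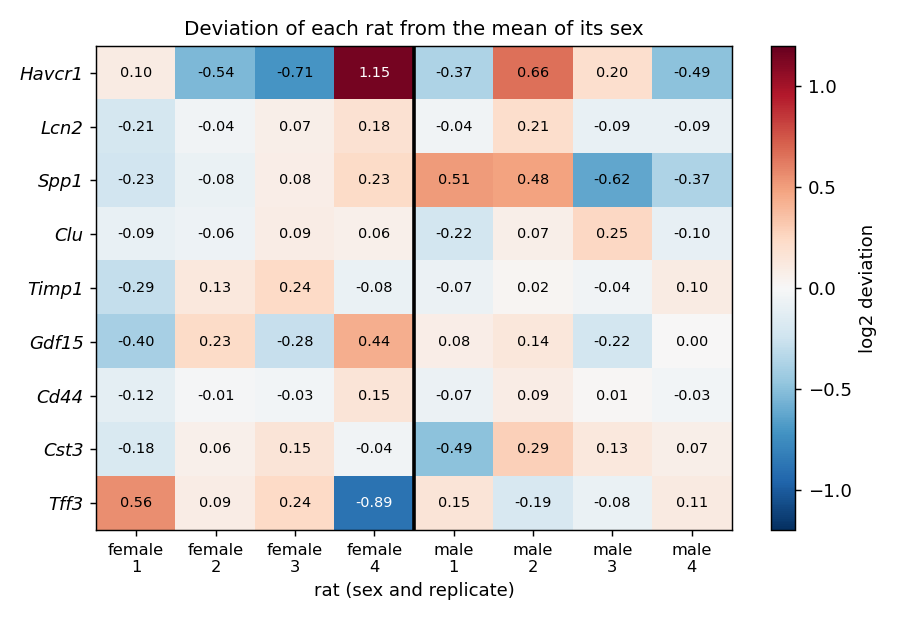
Deviation of each rat (columns, 4 females and 4 males) from the mean of its sex for 9 injury marker genes (rows), in log2 units given by colour and number. Female 4 stands out with 1.15 for Havcr1 and -0.89 for Tff3, while the rows of Lcn2, Clu and Cd44 stay near 0.

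For the 3 genes with the widest spread over the 8 rats, the probes with the most similar pattern were sought among 13148 named probes well above background on all arrays. These correlations over 8 arrays are descriptive, as all values of a rat come from 1 array and part of the likeness is the sex difference itself. They are also the highest of many, so that the selection itself favoured large values. The pattern of Tff3 was most like that of Cyp4a2, a fatty acid hydroxylase with Pearson r = 0.986, Sar1b with r = 0.982 and Phf3 with r = 0.98. Cyp4a2 itself was higher in males by 2.95 on the log2 scale (adjusted p = 0.0244 in limma) and ran from 1.22 to 6.12. The pattern of Gdf15 was most like those of Ttc13 (r = 0.973), Adamts6 (r = 0.973) and Ptdss1 (r = 0.97). For Havcr1, r was 0.97 with Tpd52l1, 0.923 with Supt4h1 and 0.917 with Pitrm1, and rank correlations were lower, at 0.786, 0.81 and 0.81.

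A list of genes that are raised in injured or incompletely repaired tubules was considered next, chosen with earlier results of these data known. Of 50 listed, 46 could be tested, and 10 passed the adjusted p in limma, which is 21.7% against 9.2% of all named genes. Of these, 8 were higher in females and 2 in males, and the median difference of the list was -0.09 against -0.025 for all named genes. Cryab, which encodes the small heat shock protein αB-crystallin, was 2.94-fold higher in females (-1.55 ± 0.221 (SE), adjusted p = 0.00573), with females from 3.35 to 4.40 and males from 2.08 to 2.50. Fgb, which encodes the β chain of fibrinogen, was 2.54-fold higher in females (-1.35 ± 0.0931 (SE), adjusted p = 0.000353), with females from -1.55 to -1.38 and males from -3.01 to -2.64. The other chains pointed the same way, with -1.45 for Fgg (adjusted p = 0.048) and -0.60 for Fga (adjusted p = 0.0406). Nupr1, a stress-induced nuclear protein, gave -0.96 ± 0.111 (SE; adjusted p = 0.00234).

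Prom1, which encodes the stem cell and tubular progenitor antigen CD133, was 1.85-fold higher in males (0.89 ± 0.182 (SE), adjusted p = 0.0245 in limma). Female 3 with 2.02 lay above the other females (1.27 to 1.34) and below the males (2.18 to 2.63). A further probe of Prom1 gave 0.95. The remaining genes that passed were chosen for mention after their values were seen: Plau, S100a6 and Anxa1 were higher in females by 0.39 to 0.56 on the log2 scale, and Krt7 was higher in males by 0.41. Widely used injury genes that did not pass in limma were Vcam1 (0.25, adjusted p = 0.288), Krt8 (0.13, adjusted p = 0.371), Krt18 (-0.41, adjusted p = 0.0663), Vim (-0.29, adjusted p = 0.0626), Cdkn1a (-0.06, adjusted p = 0.798) and Atf3 (-0.07, adjusted p = 0.838). Krt20 was well above background on 1 array, and Sox4 had no named probe.

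Several of these calls were lost when a rat was left out. For Fgg this held for every rat but female 4 (adjusted p in limma 0.0536 to 0.119), for Krt7 for every rat but male 3 (0.0625 to 0.102), for Fga for every rat but female 4 and male 4 (0.0869 to 0.104), and for Prom1 for every rat but female 3 and male 4 (0.0538 to 0.0698). Cryab, Fgb, Nupr1, Plau, S100a6 and Anxa1 passed without any 1 of the 8 rats.

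Genes whose expression falls in injured tubules formed the last list, together with genes whose products serve as urinary markers. Of 25 tested genes, 5 passed the adjusted p, 2 higher in males and 3 higher in females, with a median difference of -0.01. This is 20% of the list, against 9.2% of all named genes. Gsta1, a glutathione transferase of the proximal tubule, was higher in males (0.60 ± 0.0901 (SE), adjusted p = 0.00716 in limma), and so was the urate transporter gene Slc22a12 (0.66, adjusted p = 0.0358). Beside Cubn, the dipeptidase gene Dpep1 (-0.67, adjusted p = 0.0362 in limma) and Egf, which encodes epidermal growth factor (-0.38, adjusted p = 0.0301), were higher in females. Kl, which encodes the co-receptor Klotho, gave -0.61 (adjusted p = 0.0781 in limma), and B2m, which encodes β2-microglobulin, gave 0.30 (adjusted p = 0.071). In limma the adjusted p rose above 0.05 for Slc22a12 without female 2, 3 or 4 or male 1, 2 or 3 (0.0603 to 0.0924), for Dpep1 without any 1 rat but female 2 and female 3 (0.0656 to 0.0919), and for Egf without any 1 rat but female 4 and male 3 (0.0558 to 0.0819).

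Over all 7 lists, each gene counted once, 19 of 119 tested genes passed the adjusted p (16%), 6 higher in males and 13 higher in females, against 9.2% of named genes. This count was 11 without female 2, 12 without male 1 and 10 without male 2. Of the 19 genes, 3 also passed the 2-fold limit, namely Cryab, Fgg and Fgb. With normexp background correction the difference of Fgg was -0.90, under that limit. All 7 lists were chosen with earlier results of these data known, so that their shares are given as a description.

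**Figure D4:**
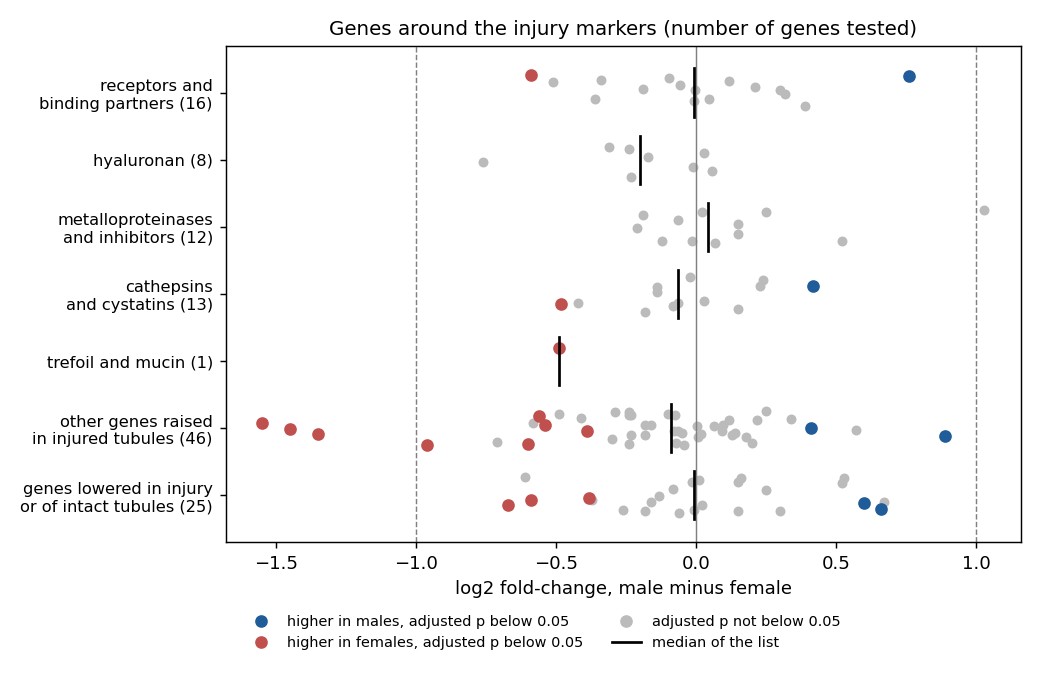
Difference between males and females (horizontal axis, log2 fold-change, male minus female) for the genes of 7 lists around the injury markers, 1 point per gene by its brightest probe, with numbers tested in parentheses. Coloured points passed the adjusted p of 0.05 and short vertical lines are list medians. The 3 points beyond a 2-fold difference that passed are Cryab, Fgg and Fgb, all higher in females.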

How the data were processed

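Cy3-labelled RNA of kidney cortex from 4 male and 4 female rats was read on 1 array per rat. The authors deposited the signal intensity of every spot from Feature Extraction 10.7.3.1, with the background subtracted and without normalization between arrays, as well as a table of quantile-normalized log2 values. The submitters' processing notes name limma 3.8.2. Here, after removal of outlier spots, log2 signals were centred on the array's 75th percentile and averaged over the spots of a probe. Probes that exceeded the background clearly on 4 or more of the 8 arrays were fitted in limma 3.58.1 (R 4.3.3, lmFit and eBayes) as male minus female without covariates. Exact permutation tests used 70 assignments, two-sided. A probe was named through its RefSeq accession, and the brightest probe stood for a gene. The p-values measure the spread between rats, and 4 arrays per sex limit the precision. Named genes were all members, fixed key partners, and of each list up to 6 genes with the largest differences that passed. The members and lists were chosen with earlier results of these data known. In simulated data the fit was tested before use. Replicate numbers in the labels were not used as pairs in the main fit. Alternatives were other normalizations, background correction, filters, priors, weights, blocks, probe choice, and leaving out each rat. Figures were drawn in Python with matplotlib.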

Additional observations from a re-analysis of the deposited data

Results flagged for a closer look

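In 8 of 102 groups of 4 rats examined, 1 value stood apart from the other 3 by Dixon's criterion, where chance alone flags about 1 in 20 groups (5.1 here). Of the injury markers this concerned Lcn2, with -3.58 in male 2 against -3.88 to -3.84 in the other males. Among the genes around them, Atf3 was -3.39 in female 1 against -2.68 to -2.60, Nupr1 was -1.25 in female 2 against -1.63 to -1.59, and Dpep1 was 1.68 in male 2 against 1.94 to 1.96. Prom1 was 2.02 in female 3 against 1.27 to 1.34, and Timp2 was 3.13 in female 4 against 2.81 to 2.86. The dim probe of Itgb3 was flagged in both sexes, with -7.39 in female 3 (others -7.89 to -7.82) and -8.68 in male 3 (others -7.92 to -7.81).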

How the results depend on the processing

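The count of 2 called injury markers fell to 1 with normexp background correction, where Gdf15 reached 0.99. It also fell to 1 with the replicate block, where the adjusted p of Tff3 was 0.0567 in limma. When rats were left out, it was 1 without female 1, female 2 or any 1 of the males, and 2 without female 3 or female 4. Between the female and the male of a replicate number, deviations from the mean of the sex correlated at 0.125, 0.0427, -0.00794 and 0.117. The best match of the female was the male of her number for replicates 1 and 4, but not for 2 and 3. With the replicate numbers as a block 372 of all probes were called in place of 443, and 13 partner genes in place of 19. With the adjusted p alone, 1889 of all probes passed, and leaving out rats gave 355 to 495 with both limits. Without the filter on dim probes 12 partner genes passed, and leaving out rats gave 10 to 16. With an intensity trend and robust prior 28 passed, and with array weights 22. The cause of these changes was not tested. Among the genes named, signs turned for these: Clu was -0.039 with array weights, and -0.074 to 0.084 when rats were left out in turn. Ctsb was 0.021 with quantile normalization and with the deposited log2 values. Lrp2 was 0.065 and 0.068 with these, 0.014 with normexp, 0.0075 as the mean of its probes, and from -0.074 to 0.062 with rats left out. Mmp2 was 0.014 and 0.011 with quantile normalization and deposited values, 0.015 with array weights and -0.13 to 0.052 with rats left out. Leaving out rats moved Atf3 from -0.26 to 0.00072 and Havcr1 from -0.54 to 0.074, both highest without female 4, and Cdkn1a from -0.15 to 0.015, highest without male 3. Timp1 and Gdf15 passed the adjusted p in 19 of 19 alternatives, Tff3 in 13. Signal over background limits the dim probes of Cd44 and Itgb3.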
